A study of Mus musculus with 8 samples.

Results

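Gm43434 and Trdc lie opposite each other on mouse chromosome 14 and are 2 of the 54146 rows of an RNA sequencing count table. Trdc encodes the constant part of the delta chain of the T cell receptor, and Gm43434 is annotated as an antisense gene over it. The pair was chosen by its readout in these libraries: the Gm43434 row had been called higher with EZM8266 and with the combination, each against DMSO. Its values in those comparisons are given as a description, with no test, and Trdc was taken as the gene it lies over.

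The cells were ID8-OR, an olaparib-resistant form of ID8, a mouse ovarian cancer line. The 4 groups, of 2 libraries each, were kept for 72 hours with olaparib and EZM8266 together (the combination), with EZM8266 alone, with olaparib alone, or with DMSO. Olaparib blocks PARP enzymes, which act at DNA breaks, and EZM8266 inhibits EHMT1 and EHMT2, which place repressive methyl groups on lysine 9 of histone H3. All groups share the resistant line, and the labels do not say whether the 2 libraries of a group are separate cultures, so the spread between them may be technical.

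The T cell receptor delta chain pairs with the gamma chain on gamma delta T cells, a lineage of lymphocytes in barrier tissues and blood. Its variable part is joined from V, D and J segments by the RAG recombinase in developing T cells, and the joined exon is then spliced to the constant exons. The delta D and J segments and the delta constant gene lie inside the alpha chain locus, between the alpha V segments and the alpha J segments. Rearranged receptor is known from T cells, not from epithelial tumour lines.

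The strand of the counts decides what the 2 rows measure. A fragment was counted where its first read had the gene's own orientation, while the library kit is of a type whose first reads have the opposite one. The counts of Rmrp, an abundant noncoding RNA, show which strand was counted: its own row held only 1.04% to 1.68% of the fragments shared out between it and the Ccdc107 row that overlaps it on the other strand. The Gm43434 row is therefore read as fragments on the strand of Trdc. The Trdc row is read as fragments on the strand of Gm43434, together with any Trdc fragments that leaked to the wrong strand. The rows count different fragments, since a fragment is assigned by its strand.

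The positions of the exons limit that reading further (mm10 coordinates). Gm43434 (ENSMUSG00000106112.1) runs on the minus strand from 54128298 to 54146287 and has 4 exons with 676 bases. Trdc (ENSMUSG00000104876.1) runs on the plus strand from 54142851 to 54148868 and has 4 exons with 3865 bases, most of them in its untranslated last exon. Exons of the 2 genes share 96 bases, 14.2% of the exon bases of Gm43434. Another 223 bases of Gm43434 lie over introns of Trdc, and 357 bases lie outside the Trdc gene.

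Those 357 bases are the last exon of Gm43434, from 54128298 to 54128654. That exon sits 14197 bases before the first exon of Trdc, in the stretch between the delta joining segments Trdj1 and Trdj2, 5110 bases past Trdj1 and 8125 bases short of Trdj2. The first exon of Gm43434 lies wholly over the last exon of Trdc, with 47 bases. The second shares 28 of its 190 bases with that same exon. Where in the row the fragments fell is not recorded in the table. Spliced Trdc RNA, Trdc introns and RNA across the joining segments therefore cannot be told apart in the Gm43434 row.

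The third exon of Gm43434 is the one that meets coding sequence of Trdc, and it is printed with the exon it meets to show how short the shared stretch is. The capitals mark the 21 shared bases, which are reverse complements of each other. The sequences are from the GENCODE M21 transcripts, at chr14:54143710-54143791 on the minus strand (82 bases) and chr14:54143771-54143836 on the plus strand (66 bases).
Gm43434 exon 3: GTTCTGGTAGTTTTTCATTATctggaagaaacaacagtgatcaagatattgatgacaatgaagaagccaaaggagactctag
Trdc exon 2: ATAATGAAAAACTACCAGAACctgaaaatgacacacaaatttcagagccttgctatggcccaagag

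**Figure D1:**
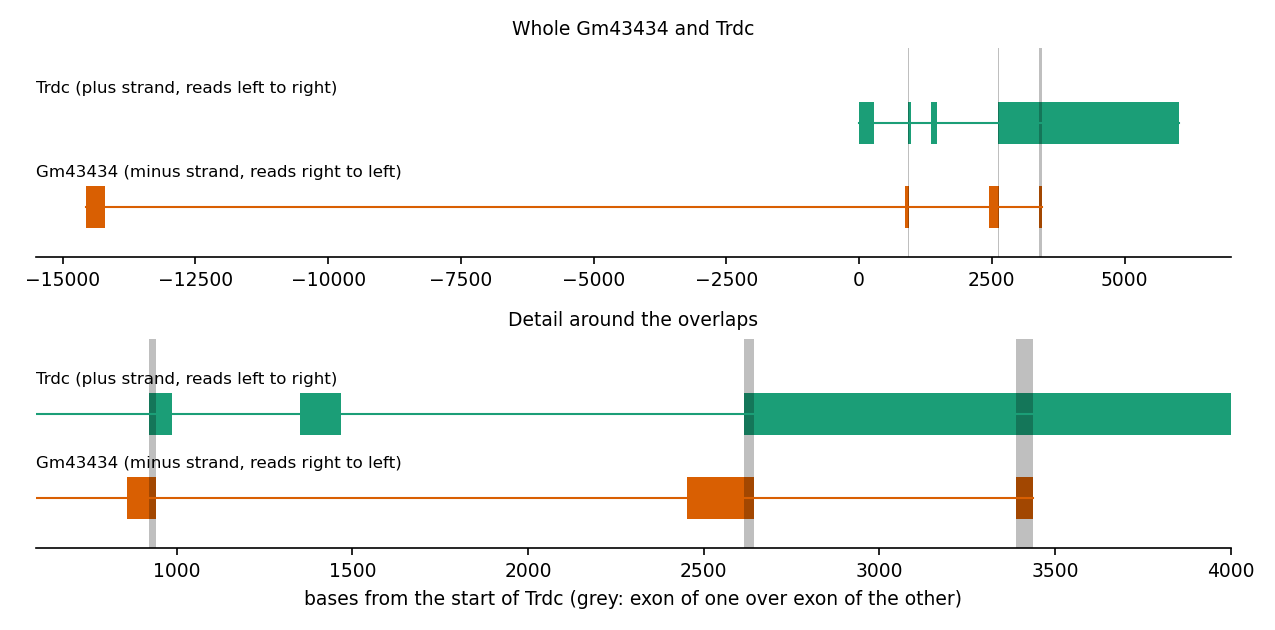
Exons (boxes) and introns (lines) of Trdc, above, and Gm43434, below, by distance in bases from the start of Trdc, for the whole genes (top) and in detail around the overlaps (bottom). Grey bands mark the 96 bases where exons of both lie opposite each other, and in the top panel the last exon of Gm43434 stands apart on the left, 14197 bases before Trdc.

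Libraries held 19743299 to 30329847 fragments, of which 4.54% to 5.4% were assigned to genes, and the counts summed to 973382 to 1680974. A count of 3 in a library, taken as the floor, was worth 1.85 to 3.02 counts per 1000000 after scaling by the TMM method (CPM). DMSO replicate 1 and olaparib replicate 2 stood apart through repeat-rich rows such as Gm10800, with 23746 and 22517 counts in that row, against 1182 to 4277 elsewhere. The Gm43434 fold changes are also given without these 2 libraries, and the other values below include them.

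Fragments on the strand of Trdc were scarce in cells without EZM8266 and more frequent in cells with it. The Gm43434 row held 50 and 58 counts with the combination, 48 and 60 with EZM8266, 10 and 5 with olaparib, and 7 and 10 in DMSO. The 4 libraries with EZM8266 were all higher than the 4 without it, with 48 to 60 counts against 5 to 10 counts. Of the 6379 rows tested, 3.32% had all 4 libraries with EZM8266 above all 4 without it in CPM, and 2.02% had them all below.

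On the CPM scale the 4 groups formed a high and a low pair. Levels were 53.4 ± 4.36 CPM with the combination, 48 ± 16.5 CPM with EZM8266, 5.71 ± 2.33 CPM with olaparib and 6.52 ± 0.481 CPM in DMSO (SD, n = 2 each). Within the high pair the combination libraries, at 50.4 and 56.5 CPM, lay inside the range of the EZM8266 libraries, at 36.3 and 59.7 CPM. Within the low pair the DMSO libraries, at 6.86 and 6.18 CPM, lay inside the range of the olaparib libraries, at 7.36 and 4.07 CPM. All 4 low libraries were above their floor. The order of the group means is thus combination, EZM8266, DMSO and olaparib, and neighbours within each pair did not differ beyond their spread.

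**Figure D2:**
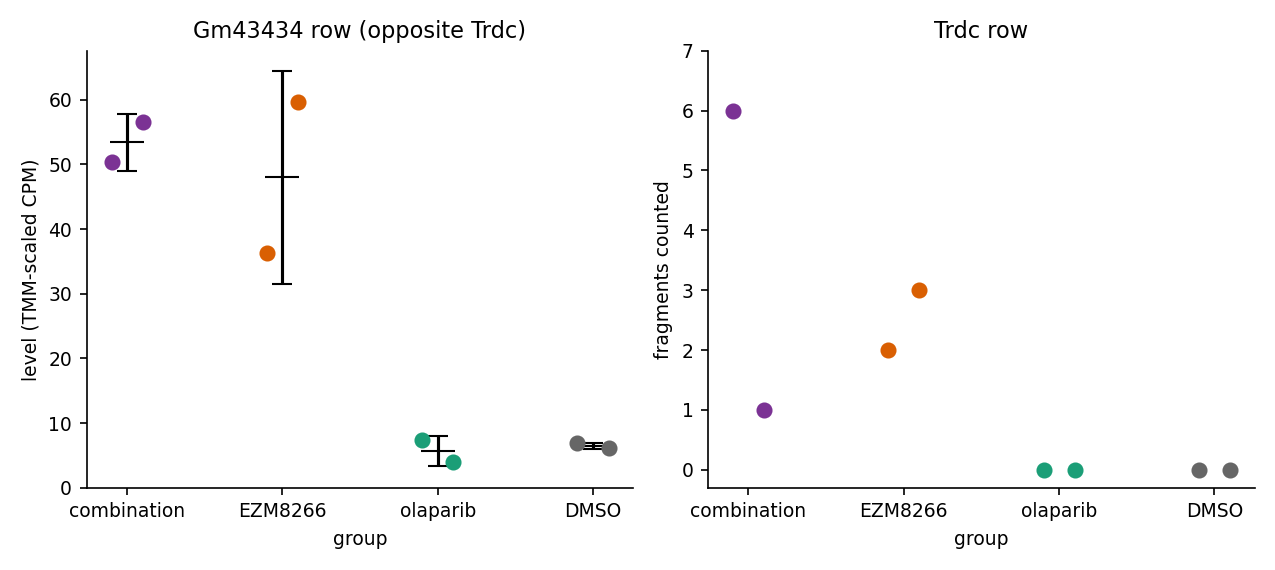
Left, the level of the Gm43434 row in TMM-scaled CPM, with points for libraries and bars for the group mean ± SD (n = 2). Right, fragments counted in the Trdc row, with points for libraries. Levels of Gm43434 were 36.3 to 59.7 CPM with EZM8266 alone or in combination and 4.07 to 7.36 CPM without it. The Trdc row held 1 to 6 counts with EZM8266 and 0 without it, and was not tested.

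With EZM8266 alone against DMSO, the question was what inhibition of EHMT1 and EHMT2 does by itself. For Gm43434 the log2 fold change was 2.86 with an SE of 0.38, which is 7.25-fold. In that comparison 13 of the 6379 tested rows were called (0.204%, edgeR, adjusted p under 0.05), 12 higher and 1 lower. The Gm43434 row was the fifth highest by fold change. It passed the filter on low counts through the libraries with EZM8266, so its presence among the tested rows depends on its being high there. The value was 2.92 without DMSO replicate 1 and olaparib replicate 2. The row was no longer called without that pair of libraries, without DMSO replicate 2 (2.77), or when only the EZM8266 and DMSO libraries entered the fit (2.85).

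With the combination against DMSO, which asked what both inhibitors do together, the Gm43434 row had a log2 fold change of 3.03 ± 0.38, or 8.17-fold. There 14 rows were called (0.219%), 12 higher and 2 lower. Both comparisons use the same DMSO libraries, so the values for EZM8266 and the combination are not separate measurements. The value was 3.10 without DMSO replicate 1 and olaparib replicate 2. It was 2.95 without DMSO replicate 2, where the row was no longer called.

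The combination against olaparib asked what EZM8266 adds in cells that already have olaparib. The Gm43434 row had a log2 fold change of 3.19 ± 0.39, or 9.11-fold, from libraries with 50 and 58 counts against 10 and 5. This comparison shares the combination libraries with the one that chose the row, so it too is a description. In it 6 rows were called (0.0941%), 4 higher and 2 lower. The value was 3.69 without olaparib replicate 1. It was 2.83 without olaparib replicate 2, with or without DMSO replicate 1 left out as well, and the row was called in neither case.

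Olaparib made no detectable difference to the row, in either background. Against DMSO, olaparib alone gave a log2 fold change of -0.16 ± 0.51, with an adjusted p of 0.999 in edgeR's quasi-likelihood test over all rows. The interval of 1.96 SE either side reached from -1.15 to 0.84, so a change of up to about that size was not detectable with 5 to 10 counts a library. Without olaparib replicate 2 the value turned to 0.20, and without both olaparib replicate 2 and DMSO replicate 1 it turned to 0.27. No row was called in this comparison by edgeR or DESeq2 (0%), while the unadjusted p was under 0.05 for 117 of them.

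The combination against EZM8266 was the better measured of these comparisons, since its libraries hold 48 to 60 counts of the row. The log2 fold change was 0.17 ± 0.30, with an interval from -0.41 to 0.75 and an adjusted p of 0.99999 (edgeR). It was -0.14 without EZM8266 replicate 1. By edgeR 0 rows were called (0%), with 98 at an unadjusted p under 0.05, and DESeq2 called 1. Both of these comparisons use libraries that also entered the choice of the row, so neither is independent of it.

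The Trdc row itself was nearly empty. It held 6 and 1 counts with the combination, 2 and 3 with EZM8266, 0 and 0 with olaparib, and 0 and 0 in DMSO. Each library with EZM8266 had at least 1 fragment and no library without it had any, but 3 of the 4 libraries with EZM8266 were at or below the floor of 3 counts. The share of all rows with so few counts that show such a split was not determined, so the split is a description only. The row did not pass the filter on low counts, so of the 2 rows 1 was tested. A count of 0 allows for up to 3 counts in a library, and a change in the Trdc row was therefore not detectable at this depth.

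Per length the 2 rows were far apart. Over both libraries of the combination, the Gm43434 row had 160 counts per kb of exon and the Trdc row 1.81. With EZM8266 the values were 160 and 1.29 counts per kb, with olaparib 22.2 and 0, and in DMSO 25.1 and 0. The strand of Trdc thus held most of the fragments of the pair in each group.

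Of the fragments in both rows together, those in the Trdc row were 7 of 115 with the combination, or 6.09% (Wilson 95% interval 2.98 to 12%), and 5 of 113 with EZM8266, or 4.42% (1.9 to 9.94%). With olaparib they were 0 of 15 (Wilson upper limit 20.4%), and in DMSO 0 of 17 (18.4%). By the floor of 3 counts, these zeros allow shares of up to 20% and 17.6%. The intervals and limits cover counting error only. For Rmrp the share of its own row was 1.04% to 1.68% over the libraries, by library 1.44% and 1.21% with the combination, 1.55% and 1.04% with EZM8266, 1.53% and 1.42% with olaparib, and 1.24% and 1.68% in DMSO. The shares are not on one scale, because the Trdc row covers 3865 exon bases and the Gm43434 row 676. The part of leakage in the Trdc row was not tested.

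A second row lies opposite Trdc. Trdv5, the delta variable segment that sits past the constant region in inverted orientation, is on the minus strand and shares 207 exon bases with the far end of the last Trdc exon. It held 2 and 0 counts with the combination, 0 and 0 with EZM8266, 1 and 0 with olaparib, and 0 and 0 in DMSO. Over all libraries the Gm43434 row had 367 counts per kb of exon, and the Trdv5 row 6.85. Fragments on the strand of Trdc were thus counted over Gm43434 and hardly over Trdv5. Trdv5 reaches only the far end of the last Trdc exon, and Gm43434 was chosen for its counts. The source of the Gm43434 fragments was not tested.

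The other rows around the pair were almost empty. Around the pair, from 54000959 to 54297456 on chromosome 14, the table has 76 rows, of which 35 had any count and 1, Gm43434, passed the filter. The 74 rows other than Gm43434 and Trdc summed to 14 and 18 counts with the combination, 13 and 14 with EZM8266, 22 and 8 with olaparib, and 7 and 9 in DMSO. These sums, not scaled for depth, overlap between the libraries with and without EZM8266. Of the 74 rows, 69 are on the plus strand and so count the minus strand. On their own strand the Traj segments and Trac were therefore not measured. Only 5 rows count the same strand as the Gm43434 row. Those 5 summed to 4 and 9 counts with the combination, 2 and 2 with EZM8266, 10 and 5 with olaparib, and 0 and 3 in DMSO. Among them Gm30275, which lies before Gm43434, held 6 counts over all libraries.

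**Figure D3:**
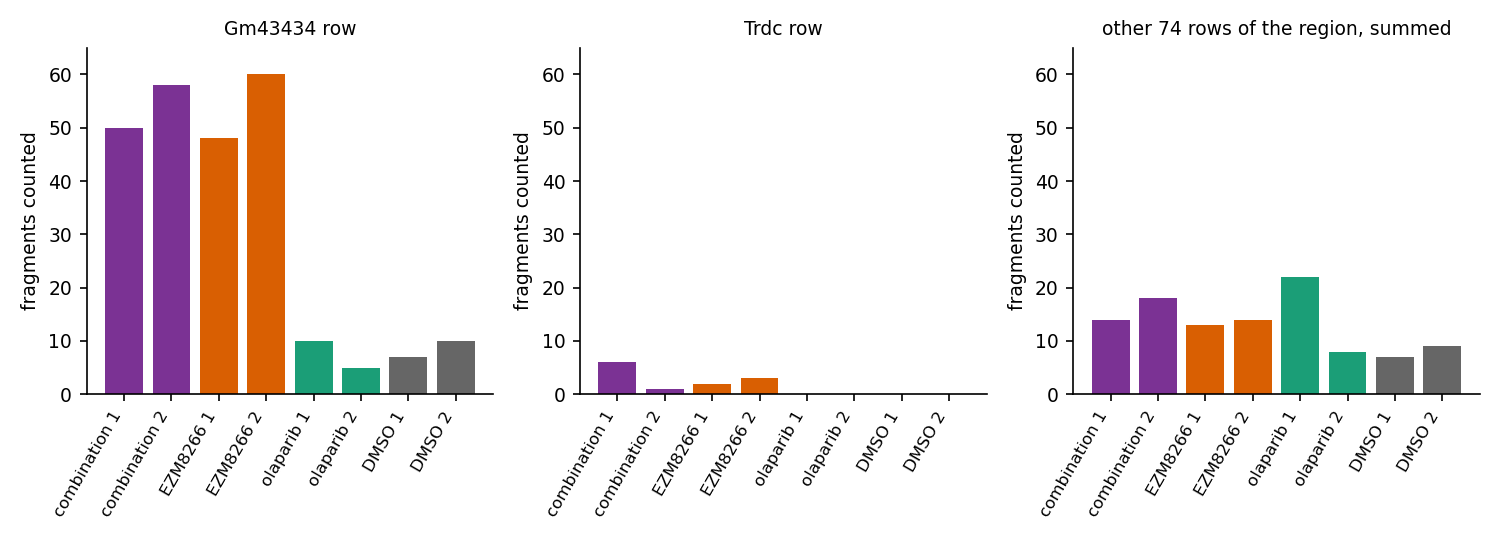
Fragments counted per library, by group, for the Gm43434 row, the Trdc row and the sum of the other 74 rows from 54000959 to 54297456 on chromosome 14. The Gm43434 bars are 48 to 60 with EZM8266 alone or in combination and 5 to 10 without it, while the other rows together reach 7 to 22 in all 8 libraries. Of the other 74 rows, 69 count the strand that the Gm43434 row does not count.

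The neighbours divide by kind. The 60 alpha joining segments (Traj rows) summed to 6 and 7 counts with the combination, 5 and 10 with EZM8266, 9 and 1 with olaparib, and 5 and 3 in DMSO. The 7 rows of delta variable, diversity and joining segments had 0 to 2 counts a library. Trac, the constant region of the alpha chain, held 3 and 1 counts with the combination, 6 and 1 with EZM8266, 1 and 0 with olaparib, and 0 and 2 in DMSO. None of these counts, which are not scaled for depth, separated the libraries with EZM8266 from those without it. The alpha and delta locus has 201 T cell receptor rows without Trdc. They summed to 12 and 12 counts with the combination, 11 and 14 with EZM8266, 11 and 4 with olaparib, and 8 and 7 in DMSO. Libraries with and without EZM8266 met at 11, before scaling for depth. Library count sums were 1103915 and 973396 with the combination, 1294195 and 973382 with EZM8266, 1617078 and 1207736 with olaparib, and 1055309 and 1680974 in DMSO. Relative to these, each library with EZM8266 was higher than each library without it. The share of sums this small that show such a split was not determined. The difference was not tested. The Traj and Trac rows count the minus strand, unlike the Gm43434 row.

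Past the receptor genes lies Dad1, which encodes a subunit of the oligosaccharyltransferase that glycosylates proteins. Its row held 2 and 4 counts with the combination, 1 and 1 with EZM8266, 7 and 2 with olaparib, and 0 and 3 in DMSO. The row of Abhd4, a lipid hydrolase and the next gene along, held 0 to 2 counts a library. Both rows count the strand opposite to their gene, so they do not measure the RNA of Dad1 or Abhd4.

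The nearest rows with enough counts to test lie further along the chromosome. Within 1 Mb of Gm43434 there were 13 other tested rows, all on the side of Dad1, the closest being Oxa1l, 214547 bases away. They were taken up after the values were seen. These rows lie on either strand, and each counts the strand opposite to its gene. Their log2 fold changes ranged from -0.64 to 0.74 with the combination against DMSO (median 0.02) and from -0.49 to 1.16 with EZM8266 against DMSO (median 0.03). Over all tested rows the median was -0.02 in both comparisons.

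Across the 5 comparisons, 0 of these 13 rows were called, beside 0% to 0.219% of all tested rows. At such shares 0 calls among so few rows says little about them. The highest was Slc7a7, a subunit of a basic amino acid transporter, whose row is opposite Oxa1l, a mitochondrial membrane insertase. It held 10 and 5 counts with the combination, 12 and 11 with EZM8266, 11 and 9 with olaparib, and 2 and 10 in DMSO. Its log2 fold change with EZM8266 against DMSO was 1.16 ± 0.62 (adjusted p 0.854, edgeR).

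**Figure D4:**
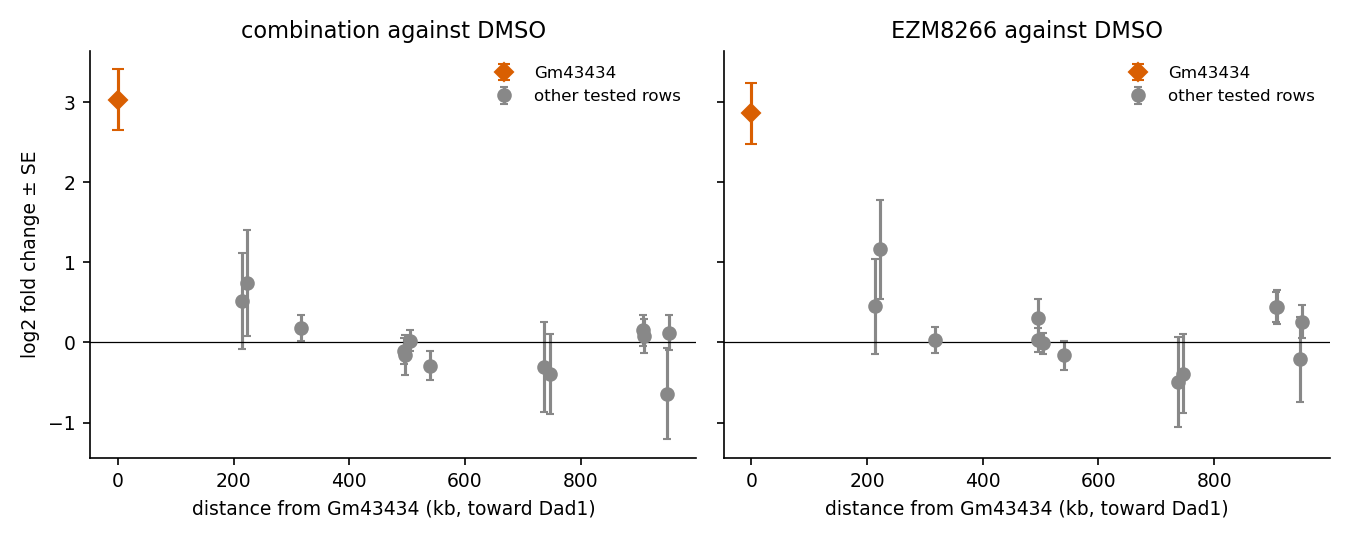
Log2 fold change ± SE of Gm43434 (diamond) and of the 13 other tested rows within 1 Mb (circles) against distance from Gm43434 in kb, for the combination and for EZM8266, each against DMSO. Gm43434 lies at 3.03 and 2.86, and the other rows lie between -0.64 and 1.16.

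Other antigen receptor genes gave no comparable counts. Across the table, the rows of T cell receptor genes without Trdc, 269 in all, summed to 12 and 12 counts with the combination, 11 and 15 with EZM8266, 11 and 8 with olaparib, and 9 and 8 in DMSO. The 53 rows of the beta locus had 6 counts in all and the 15 rows of the gamma locus had 1. The constant genes Trbc1, Tcrg-C1, Tcrg-C2 and Tcrg-C3 were at 0 in every library, and Trbc2 and Tcrg-C4 had 1 count each. Trdc is the only one of the 8 constant genes with a row opposite it, so the strands of the others, Trac included, were not measured.

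Markers of T cells were near 0. Of 14 marker genes 13 matched a row, and the largest was Cd247, the CD3 zeta chain, with 400 to 592 counts a library. That row overlaps exons of Pou2f1, which encodes a widely expressed transcription factor, by 3007 bases on the other strand. The other 12 rows summed to 8 and 3 counts with the combination, 10 and 4 with EZM8266, 7 and 5 with olaparib, and 8 and 6 in DMSO. Cd3e, a chain of the CD3 complex, and Cd2 and Cd28, which are surface receptors of T cells, were at 0 in all libraries. Cd3d had 1 count in all, Cd3g 2 and Ptprc, the pan-leukocyte CD45, 4. These rows count the strand opposite to the genes and are not a direct measure of their RNA. The strand of Cd3e was counted over 1 row, Gm48719, which held 0 counts in all 8 libraries, so up to 3 counts a library are allowed there. In bulk RNA, fewer cells of a kind and less RNA per cell cannot be told apart.

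The own rows of other immune markers and of epithelial markers also count the strand opposite to the genes, so their counts are not levels of the markers' RNA. Those of other immune cells were scarce, with 12 of 14 genes matched and 3 to 16 counts in all per library. The largest were Cd68, of macrophages, with 49 counts over the 8 libraries, and Cd79a, of B cells, with 12. Of the ovarian surface and mesothelial markers, all 10 matched rows held counts, with 109 to 377 in all per library. They were led by Vim, an intermediate filament, with 877 counts over the 8 libraries, then Krt19, a keratin of simple epithelia, with 273, Wt1, a mesothelial transcription factor, with 240, and Krt18, another keratin of simple epithelia, with 181. Of these rows 5 were tested and 0 were called in any comparison, beside 0% to 0.219% of all tested rows. The strand of Krt8, a further keratin, was counted over the Gm36026 row, with 215 and 258 counts with the combination, 329 and 261 with EZM8266, 353 and 291 with olaparib, and 196 and 362 in DMSO.

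The machinery that acts on a T cell receptor locus was read in both directions, by the row of each gene and by rows opposite it. Of 22 T cell development factors and recombinases, 6 own rows and 4 opposite rows were tested, and 0 were called in any comparison. The share called over all tested rows was 0% to 0.219%, so 0 calls in so short a list says little. The median log2 fold change of the opposite rows was -0.09 with the combination against DMSO and -0.07 with EZM8266 against DMSO, beside -0.02 over all rows. On the strand of Sox4, a transcription factor of progenitor cells (Gm26735 row), counts were 3121 and 3194 with the combination, 3742 and 3387 with EZM8266, 5052 and 4283 with olaparib, and 3876 and 5524 in DMSO. Its log2 fold change was -0.20 ± 0.12 with the combination against DMSO (adjusted p 0.973, edgeR).

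The strand of Runx1, a factor of blood cell formation (Gm26626 row), had a log2 fold change of 0.02 ± 0.16 with the combination against DMSO. The strand of Gata3, a T cell lineage factor (Gm13256 row), had -0.26 ± 0.26 there and -0.68 ± 0.26 with EZM8266 against DMSO (adjusted p 0.797, edgeR). On the strand of Rag2, a subunit of the recombinase (B230118H07Rik row), there were 2 and 0 counts with the combination, 2 and 1 with EZM8266, 4 and 1 with olaparib, and 0 and 0 in DMSO.

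Of 20 genes of the CD3 complex and the signalling steps next to the receptor, 2 own rows and 2 opposite rows were tested. Of these 0 were called, which says little beside the 0% to 0.219% called over all tested rows. The own rows were Cd247, with a log2 fold change of 0.17 ± 0.12 with the combination against DMSO, and Plcg1, a phospholipase that signals downstream of many receptors, with 0.18 ± 0.56. Both opposite rows, Zhx3 and Gm27206, lie over Plcg1, and had 0.05 ± 0.17 and -0.00 ± 0.18 in that comparison.

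EZM8266 acts on the histone methylation machinery, whose own genes were also read. Of 21 genes of histone H3 lysine 9 methylation, 10 own rows and 8 opposite rows were tested and 0 were called in any comparison. Over all tested rows the share called was 0% to 0.219%, so 0 calls among so few rows says little about them. Ehmt1 and Ehmt2, which encode the targets of EZM8266, had own rows but no opposite row. Those own rows count the strand opposite to the gene, so the RNA of Ehmt1 and Ehmt2 was not measured. The opposite rows had a median log2 fold change of -0.06 with the combination against DMSO and 0.03 with EZM8266 against DMSO. The strand of the methyltransferase Suv39h1 (Gm14820 row) had 0.08 ± 0.12 with the combination against DMSO. That of Suv39h2 was counted over 2 tested rows, Dclre1c with -0.02 ± 0.15 and Gm13184 with 0.29 ± 0.69 in that comparison. With EZM8266 against DMSO these 2 rows had 0.03 ± 0.15 and 0.91 ± 0.64 (adjusted p 0.987 and 0.907, edgeR).

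The rows whose pattern over the 8 libraries was most like that of Gm43434 were found by Pearson's r of log2 CPM, among 6378 rows. The median r was -0.05, and 51 rows had an r over 0.9. The 5 closest were Gm15657 (r = 0.997), Snx17 (0.994), Myo1h (0.98), Gm16754 (0.979) and Gm30489 (0.973). All rows share the same 8 libraries, with their depths and their split by EZM8266, so a high r describes shape only.

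The size of the difference varied widely among those rows. Gm15657, opposite Muc13 and the endothelial junction protein Heg1, averaged 264 ± 7.86 CPM with the combination, 253 ± 13.4 with EZM8266, 178 ± 10.9 with olaparib and 176 ± 2.21 in DMSO (SD, n = 2). Gm30489, opposite F13a1, a subunit of coagulation factor XIII, averaged 180 ± 13.3 CPM with the combination, 185 ± 16.2 with EZM8266, 71.2 ± 2.85 with olaparib and 65.4 ± 5.28 in DMSO. The log2 fold change of Gm30489 was 1.45 ± 0.16 with the combination against DMSO and 1.49 ± 0.16 with EZM8266 against DMSO. The 5 rows were picked for following Gm43434 over these libraries, so their values are a description, with no test.

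The other 3 had smaller fold changes. Snx17, a sorting nexin, overlaps Eif2b4 and Zfp513 on the other strand and had a log2 fold change of 0.32 ± 0.19 with the combination against DMSO. Myo1h lies opposite Kctd10 and had 0.19 ± 0.11, and Gm16754, opposite the oxidative stress sensor Keap1, had 0.20 ± 0.13. None of the 5 lies on chromosome 14.

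The 4 libraries with EZM8266 carry label numbers 33 to 36, and the 4 without it carry 41 to 44. An effect of such a block of numbers and an effect of EZM8266 on the Gm43434 row cannot be told apart.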

How the data were processed

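RNA of ID8-OR cells was depleted of ribosomal RNA, made into libraries with the KAPA mRNA HyperPrep kit and read as pairs of 150 bases, per the labels' protocols. The deposited count table holds whole-number fragments per gene, made by the authors with featureCounts 1.6.2 over GENCODE M18 exons of mm10 with strand setting 1, per the file headers. FastQC 0.11.8, MultiQC 1.7 and HISAT2 2.1.0 are named in the submitters' processing notes. Symbols came from GENCODE M21 (52480 rows named, 1666 not), and exon positions from the deposited table. Each library's group and number come from its title, and combination replicate 2, whose treatment label reads EZM8267, was kept with its title.

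All 8 libraries entered 1 edgeR 4.0.16 quasi-likelihood fit (R 4.3.3) with 4 group means, TMM scaling and filterByExpr (minimum count 10, minimum total 15), with Benjamini-Hochberg adjustment over 6379 rows and calls under 0.05. The fit was also run on simulated counts with the same spread for every row, which does not test changes in rows with few counts. An opposite row has at least 50 exon bases over an exon of the gene on the other strand. DESeq2 1.42.0, RLE scaling, no filter, a replicate block, fits of only the groups compared and leaving out libraries were the alternatives. Rows named are the 2 members, rows with at least 10 counts or passing the filter from 54000959 to 54297456 on chromosome 14, the 5 most alike by r (prior count 2), and up to 4 per gene list. The members and lists were chosen with earlier results of these data known, and other rows that are named were chosen after their values were seen.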

Additional observations from a re-analysis of the deposited data

How the results depend on the processing

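In the 3 comparisons of cells with EZM8266 and cells without it, the Gm43434 values kept their direction, but not always the call. The row was chosen by its call, so a call that was kept is no support, and lost calls are given as limits. The direction was kept in every alternative but the replicate block with crossed DMSO numbers, where the Gm43434 values were not recorded. For EZM8266 against DMSO the call was lost without DMSO replicate 2, without DMSO replicate 1 and olaparib replicate 2, and with only the groups compared. For the combination it was lost against DMSO without DMSO replicate 2, and against olaparib without olaparib replicate 2, alone or with DMSO replicate 1. The log2 fold change with EZM8266 against DMSO was 2.85 to 2.92 under the alternatives that change the method or drop DMSO replicate 1 and olaparib replicate 2 together, and 2.47 to 3.17 with 1 library left out, lowest without EZM8266 replicate 2. For the combination against DMSO it was 2.95 to 3.12 with 1 library left out. For the combination against olaparib it was 2.83 to 3.69 with 1 library left out, and 2.83 when DMSO replicate 1 and olaparib replicate 2 were both dropped, a pair chosen after seeing the data. For olaparib against DMSO it was -0.66 to 0.20 with 1 library left out, and turned to 0.27 without that pair. For the combination against EZM8266 it was -0.14 to 0.57 with 1 library left out. Group means moved by less than 1 SD with RLE scaling or the unscaled total.

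The number of rows called moved more. With no filter on low counts (27896 rows) it was 42, 45 and 8 for EZM8266, the combination and olaparib against DMSO, 12 for the combination against EZM8266 and 42 for the combination against olaparib. With only the groups compared it was 11 for the combination against olaparib and 3 for EZM8266 against DMSO. DESeq2 called 1 row for the combination against EZM8266. Without DMSO replicate 1 and olaparib replicate 2 the counts were 3, 5 and 1 for EZM8266, the combination and olaparib against DMSO. With 1 library left out they ranged from 5 to 24, 6 to 19 and 0 to 1 in those comparisons, 0 to 3 for the combination against EZM8266 and 4 to 13 for the combination against olaparib. The cause was not tested.

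Deviations of same-numbered replicates correlated at 0.218 to 0.293 in the 3 pairs of groups without DMSO and at -0.315 to -0.147 in the 3 pairs with DMSO. The sign is that of a shared replicate structure with the DMSO numbers crossed, but the labels give no such pairing, so the numbers are not taken as one. With a replicate block 10 rows were called for EZM8266 and 15 for the combination, each against DMSO, and the Gm43434 values were 2.87 and 3.04. When the DMSO numbers were crossed in that replicate block, an alternative added after seeing the data, the counts were 84, 73 and 1 for EZM8266, the combination and olaparib against DMSO, 3 for the combination against EZM8266 and 47 for the combination against olaparib.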
